A study of Mus musculus with 9 samples.

Results

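Cytoplasmic ribosomal protein genes encode the protein parts of the ribosome's small (Rps symbols) and large (Rpl symbols) subunits. They were taken as every row of the expression table whose symbol is Rps or Rpl followed by a number and at most a short suffix, or Rplp0 to Rplp2, or Rpsa, leaving out copies marked -ps. That gave 84 members of 23420 symbols, 33 of the small and 51 of the large subunit. The rule used no measured value. Of the 84 members, 81 reached 1 RPKM (reads scaled by transcript length and library size) in at least 2 libraries and entered the tests. Rpl26, which was listed at 0 in every library, did not. Nor did the tissue-restricted copies Rpl10l and Rpl39l, at 0.104 and 3.65 RPKM in WT 1 and at 0 elsewhere.

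Bone marrow cells positive for Mac1, an integrin of granulocytes and monocytes, were sorted from C57BL/6 mice in pools of 100, and 9 such pools were sequenced with Smart-seq2. All 3 groups carried floxed alleles of Ezh2, the methyltransferase of polycomb complex PRC2, and of Runx1, a blood cell transcription factor (Ezh2 fl/fl Runx1 fl/fl). The WT group (n = 3) carried nothing further. The ITD group (n = 2) carried Flt3 ITD/+, an internal tandem duplication in a receptor kinase of early progenitors. The DKOITD group (n = 4) carried Flt3 ITD/+ and Rag1Cre+, a Cre that Rag1, a gene of lymphoid progenitors, drives. ITD and WT had no Cre. The labels give neither ages nor the share of Mac1+ cells in which Cre had acted. Nor do they tie a library to an animal of its own, so a p-value here covers the spread among libraries, which may be technical.

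A ribosome joins both subunits around an mRNA, and its proteins are made in nearly equal numbers. Growth signals through mTOR and the transcription factor Myc raise their production. In animals the mRNAs of these genes begin with a terminal oligopyrimidine (TOP) tract, a C followed by a run of C and T at the very 5′ end, through which mTOR controls their translation. As neutrophils mature from progenitors, their nucleoli shrink and ribosome production falls.

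The start of the mRNA is the sequence that the family is known to share, so the RefSeq start sites (GRCm38.p6) were read for the 63 members with an entry. The strand that reads like the mRNA was scanned for a C at the start followed by C or T up to a run of at least 5 bases. Of these members, 13 (20.6%) held such a run, against 813 of 27025 genes (3.008%) with an entry. Where a gene had several starts, the one with the longest run was taken. A start annotated a few bases off the true one gives no match. The sequences below cover 20 bases before the annotated start and 10 from it, with a run of at least 5 in capitals. Rpl35 (chr2:39005122-39005151, minus strand), Rps18 (chr17:33955656-33955685, minus strand), Rpl14 (chr9:120571497-120571526, plus strand) and Rps10 (chr17:27635235-27635264, minus strand) are members on which later results turn and whose start held a run.
Rpl35: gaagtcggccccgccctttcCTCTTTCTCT
Rps18: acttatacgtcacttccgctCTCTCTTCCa
Rpl14: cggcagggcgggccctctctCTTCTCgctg
Rps10: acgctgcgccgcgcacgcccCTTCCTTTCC
Rpl10a (chr17:28328451-28328480, plus strand), Rpl4 (chr9:64173367-64173396, plus strand) and Rplp0 (chr5:115559447-115559476, plus strand) are shown because they rose in DKOITD, and their annotated starts held no such run.
Rpl10a: gcgtggtggcgcccccccagcggccgcaaa
Rpl4: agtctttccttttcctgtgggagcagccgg
Rplp0: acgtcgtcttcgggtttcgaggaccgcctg
Among the 9 members that rose in DKOITD against WT, 4 had an entry and 1 of them, Rpl35, held a run.

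The libraries differed in ways that touch every value here. From the deposited values between 2824091 and 23114869 whole reads were recovered per library, of which 25827 to 138585 fell on members. S100a8 and S100a9, 2 neutrophil transcripts, took 23.7% to 30.3% of reads in WT, 20.6% in ITD and 1.603% to 9.99% in DKOITD. The denominators of the deposited columns were 0.703 to 0.809 times the recovered reads in WT, 0.853 and 0.918 times in ITD, and 1.13 to 1.44 times in DKOITD. A level in deposited RPKM is therefore lower in DKOITD, against WT, than the same share of reads would be. The WT 2 library stood apart, with a median correlation across the 81 members of 0.871 with the other libraries, where the rest lay between 0.937 and 0.964. The sort marker Itgam measured 90.3 to 143 RPKM in WT, 78.1 and 97.3 RPKM in ITD and 10.98 to 39.0 RPKM in DKOITD. Ezh2 ranged from 2.05 to 12.4 RPKM in WT, 12.9 to 19.0 RPKM in ITD and 1.54 to 18.1 RPKM in DKOITD, and these whole-gene values do not resolve the floxed exons.

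Summed over its 84 members, the family was highest in DKOITD and lowest in ITD. The summed level was 10276, 11405 and 8282 RPKM in WT 1 to 3, 7207 and 6606 RPKM in ITD 1 and 2, and 12920, 13005, 13760 and 11308 RPKM in DKOITD 1 to 4. Every ITD library lay below every WT library, and 3 of the DKOITD libraries lay above all others, while DKOITD 4 lay just under WT 2. Group means were 9988 ± 1582 RPKM in WT (SD, n = 3), 6906 ± 425 RPKM in ITD (SD, n = 2) and 12748 ± 1032 RPKM in DKOITD (SD, n = 4). As a share of recovered reads the family took 0.5995%, 0.555% and 0.499% in WT, 0.506% and 0.432% in ITD, and 1.35%, 1.27%, 1.51% and 0.963% in DKOITD. By that measure all DKOITD libraries lay above all others, and WT 3 lay just under ITD 1. With the reads of S100a8 and S100a9 left out of the total, the share averaged 0.766% ± 0.0998 in WT (SD, n = 3), 0.591% ± 0.0655 in ITD (SD, n = 2) and 1.34% ± 0.195 in DKOITD (SD, n = 4). In sorted pools, fewer cells of a type and less RNA per cell cannot be told apart.

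**Figure D1:**
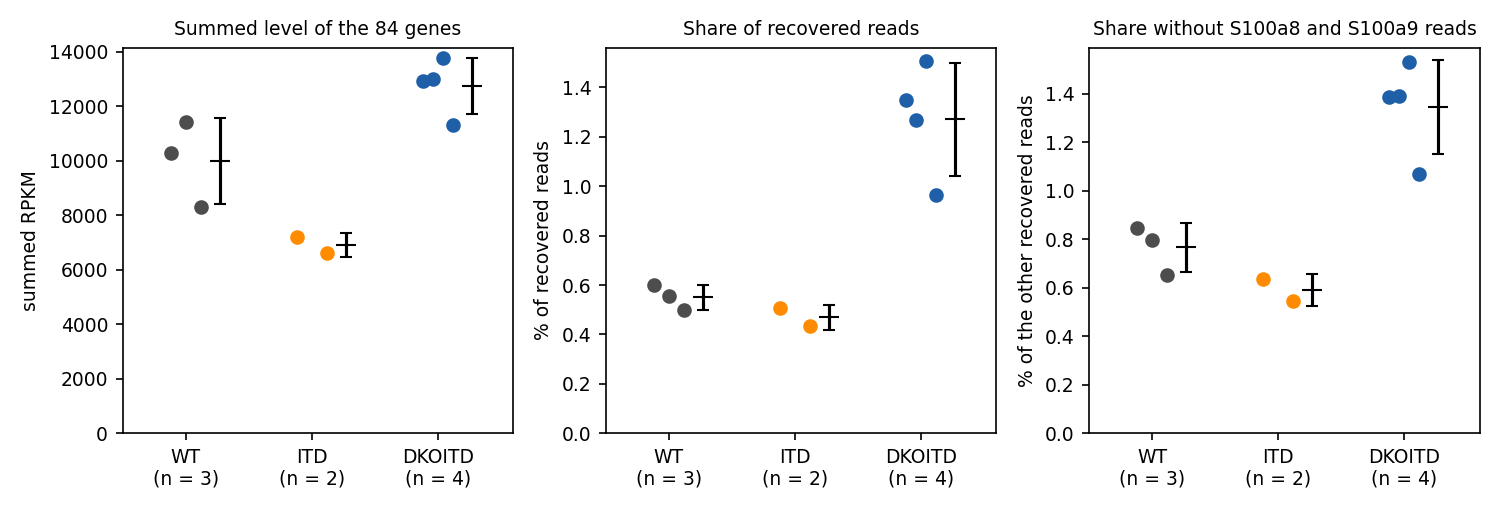
Summed RPKM of the 84 genes (left), their percent of recovered reads (middle) and that percent without the reads of S100a8 and S100a9 (right), one point per library, with bars for the group mean ± SD. DKOITD 4 at 11308 RPKM lies beside WT 2 at 11405 RPKM on the left, whereas its 0.963% of reads exceeds the WT maximum of 0.5995% in the middle panel.

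The summed RPKM of small-subunit genes was 1.37 ± 0.124 times that of large-subunit genes in WT (SD, n = 3), 1.45 ± 0.0400 times in ITD (SD, n = 2) and 1.34 ± 0.0508 times in DKOITD (SD, n = 4), and the WT libraries, from 1.23 to 1.45, spanned all DKOITD libraries. Both ITD libraries, at 1.43 and 1.48, lay just above the highest DKOITD library at 1.41.

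Single members spanned a wide range of levels per length. Among the highest by mean RPKM over the 9 libraries were Rps9 at 880.3, Rps14 at 748 and Rpl32 at 567. At the bottom, after Rpl26, Rpl10l and Rpl39l, stood Rpl30 at 0.586 and Rpl23a at 1.46, although the ribosome holds its core proteins in nearly equal numbers. Many members have processed copies in the genome with near-identical sequence. The share of a transcript's 50-base stretches found in no other gene's transcripts was computed in GENCODE vM21 for the 83 members with an entry (Rps4y2 had none). The 23 members with under 25% of such unshared stretches had a median mean level of 8.24 RPKM. The 25 members with 25% to 50% had a median of 44.0 RPKM, the 21 with 50% to 75% a median of 117 RPKM, and the 14 above that a median of 138 RPKM. Across the 83 members, which share the same libraries and are not independent, Spearman's rho between level and unshared share was 0.395. How long the reads were and how those with several matches were counted is not stated in the labels, so the levels of Rps27 (1.35% unshared), Rpl35 (4.91%), Rpl5 (6.16%), Rpl10a (11.9%) and Rpl3 (14.4%) are uncertain. Rpl4 had 83.5% unshared.

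**Figure D2:**
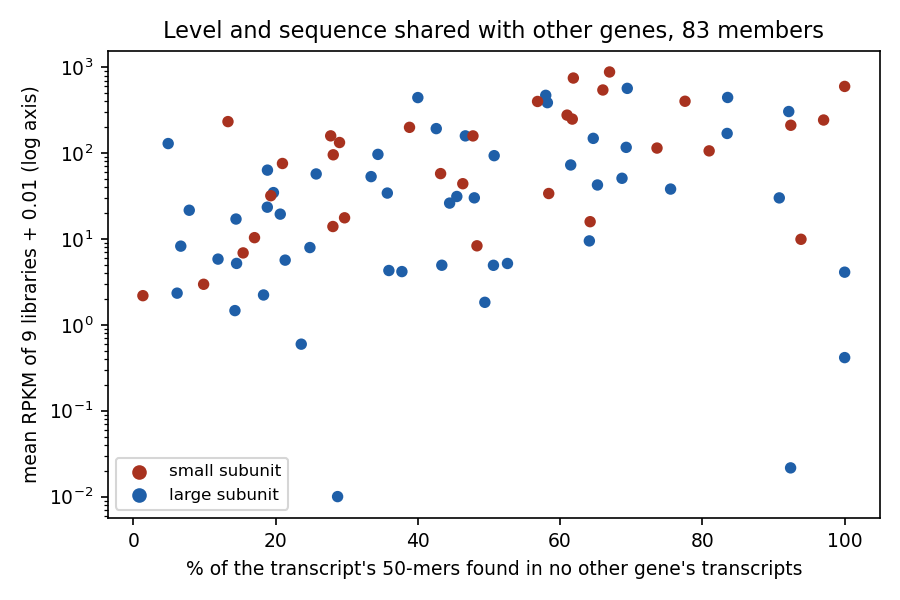
Mean RPKM over the 9 libraries plus 0.01 (log axis) against the percent of a transcript's 50-base stretches found in no other gene's transcripts, one point per member (red for the small subunit, blue for the large). Of the 23 members under 25%, the median level is 8.24 RPKM, against 138 RPKM for the 14 members at 75% or more.

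DKOITD against WT compares the mice with all the alleles and Cre with those that had only the floxed alleles. Of the 81 members tested, 9 (11.1%) rose and 0 fell at an adjusted p under 0.05 (limma on log2(RPKM + 1), adjusted over 10868 genes). Of all genes tested 12.7% passed in this comparison, 7.43% upward and 5.27% downward, so the share of members called was near the background. Limma's voom on the recovered reads, added after the data were seen, called 8 members higher and 0 lower, where 14.5% of all genes passed. At an unadjusted p under 0.05, 30.9% of members were higher and 1.23% were lower, against 17.9% and 12.3% of all genes. The median log2 difference of the members was 0.45, against 0.17 over all genes tested, and 55 of 81 members lay above 0 (67.9%, against 56.6% of all genes). The groups did not overlap for 22 members, all higher in DKOITD (27.2%, against 14.1% of all genes higher and 10.9% lower). The label numbers form 2 series, 228 to 274 for DKOITD 1 to 3 and 385 to 393 for the other libraries. With that label number series as a further factor, the members' median was 0.16 against 0.10 over all genes. In that fit the comparison rests on DKOITD 4 alone, so no count of calls is given. The labels do not say what the numbers stand for.

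**Figure D3:**
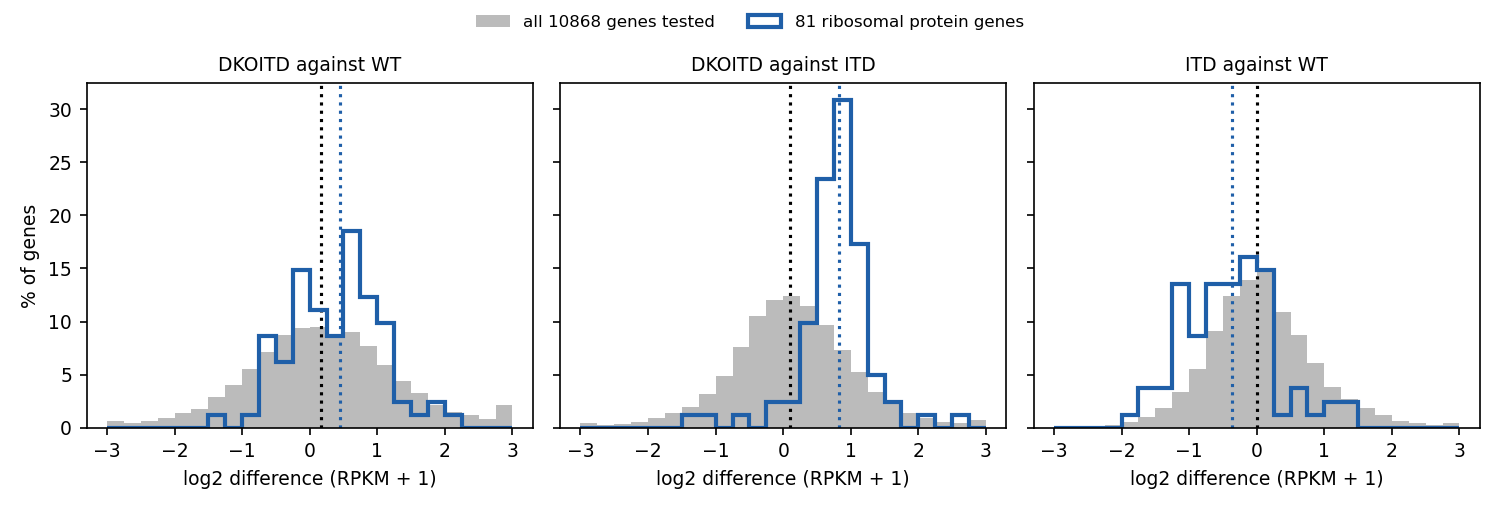
Distribution of log2 differences on the log2(RPKM + 1) scale for all 10868 genes tested (grey) and for the 81 ribosomal protein genes (blue outline) in each comparison, with values beyond 3 drawn at 3 and dotted lines at the medians. The members' median lies at 0.45 in DKOITD against WT, 0.82 in DKOITD against ITD and -0.37 in ITD against WT, against 0.17, 0.11 and 0.00 for all genes.

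Of the 48 tested members of the large subunit 7 rose (14.6%), and of the 33 of the small subunit 2 did (6.06%), a difference that was not tested. Rpl3 (chr15:80077791-80091868 in mm10), which reaches toward the peptidyl transferase centre, measured 5.46, 6.69 and 12.2 RPKM in the WT libraries, 16.8 and 8.58 in the ITD libraries and 24.9, 27.7, 29.5 and 21.7 in the DKOITD libraries. Each DKOITD library was above every other library, and the difference from WT was 1.63 ± 0.39 (SE; adjusted p = 0.0213). Rpl4 (chr9:64173375-64178666), which lines the tunnel through which the new protein leaves, measured 243, 256 and 426 RPKM in the WT libraries, 348 and 313 in the ITD libraries and 621, 598, 630.3 and 565 in the DKOITD libraries. The lowest DKOITD library was above WT 3, the highest of the rest, and the log2 difference was 1.01 ± 0.26 (SE; adjusted p = 0.0256). Rpl10a (chr17:28328471-28331033), the protein of the L1 stalk where spent tRNA leaves, measured 2.06, 0.106 and 3.54 RPKM in the WT libraries, 0.770 and 3.60 in the ITD libraries and 10.7, 11.2, 12.7 and 7.72 in the DKOITD libraries. Its log2 difference of 2.20 ± 0.57 (SE; adjusted p = 0.0277) was the largest of the 9, on low levels that left WT 2 near 0.

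Rplp0 (chr5:115559467-115563727), the base of the stalk that recruits elongation factors, measured 251, 254 and 343 RPKM in the WT libraries, 297 and 253 in the ITD libraries and 509, 497, 607 and 471 in the DKOITD libraries. Every DKOITD library exceeded every WT and ITD library, with a difference of 0.89 ± 0.24 (SE; adjusted p = 0.0310). Its partners on the stalk did not pass. Rplp1 measured 434, 744 and 313 RPKM in the WT libraries, 241 and 209 in the ITD libraries and 468, 595, 571 and 413 in the DKOITD libraries, a difference of 0.12 ± 0.30 (SE; adjusted p = 0.819), and Rplp2 measured 119, 205 and 111 RPKM in the WT libraries, 80.7 and 54.9 in the ITD libraries and 115, 125, 130.3 and 108 in the DKOITD libraries, a difference of -0.22 ± 0.29 (SE; adjusted p = 0.635). For both partners WT 2 was the highest of the 9 libraries.

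Rpl32 (chr6:115805505-115808747) measured 455, 268 and 498 RPKM in the WT libraries, 358 and 377 in the ITD libraries and 719, 854, 876 and 699.9 in the DKOITD libraries, with a difference of 0.99 ± 0.27 (SE; adjusted p = 0.0317). Rpl35 (chr2:39001580-39005624), which sits beside the mouth of the exit tunnel, measured 111, 99.1 and 66.1 RPKM in the WT libraries, 71.7 and 92.1 in the ITD libraries and 174, 174, 207 and 167 in the DKOITD libraries. It rose by 0.99 ± 0.27 (SE; adjusted p = 0.0335), and the 4 DKOITD libraries lay above the rest.

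**Figure D4:**
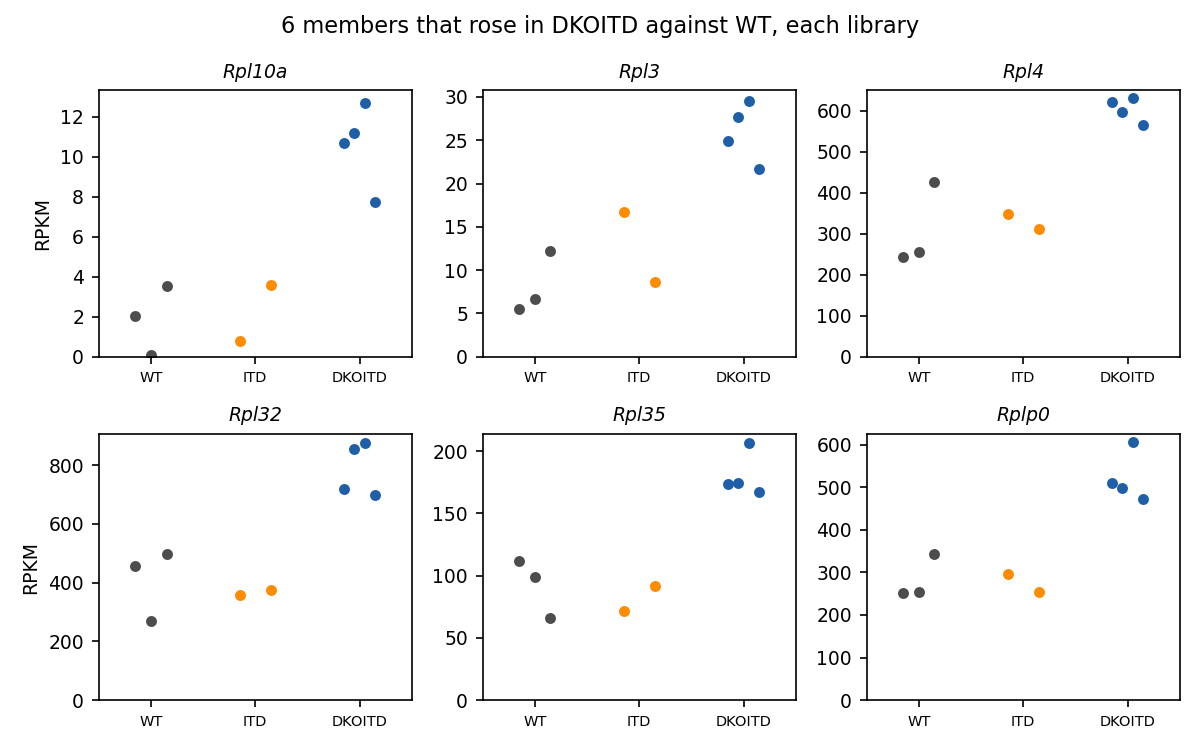
RPKM in each library (one point each) of 6 members that rose in DKOITD against WT, by falling log2 difference, with axes from 0. In each panel the 4 DKOITD libraries lie above the WT libraries; for Rpl4 the gap is between 426 RPKM in WT 3 and 565 RPKM in DKOITD 4.

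WT 2 bears on these calls. Without it, 2 of 81 members passed, Rpl3 (adjusted p = 0.0474) among them, while 7.12% of all genes did, 4.23% upward. The count was 0 without DKOITD 1 and 0 without DKOITD 3, and 14 (13 higher and 1 lower) without WT 3. Of all genes, 5.72%, 5.1% and 18.3% passed in these fits. Scaled per recovered read, a setting chosen after the data were seen, 40 members passed, where 25.3% of all genes did. The members' median was then 1.05 against 0.74 over all genes. Columns rescaled to the same sum gave 63 members, where 46% of all genes passed, and a median of 1.68 against 1.21. In both of these settings the members' median stood above that of all genes tested, and 77 and 80 of 81 members lay above 0. The sign of most negative differences between DKOITD and WT thus depends on the scaling.

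DKOITD against ITD holds the Flt3 ITD/+ allele constant and differs in Rag1Cre+. No member passed (0 of 81, where 0.212% of all 10868 genes did), and 38 members had an unadjusted p under 0.05, all of them higher in DKOITD. That was 46.9% of the members, against 9% of all genes higher and 6.65% lower. Members leaned one way: 76 of 81 lay above 0 (93.8%, against 55.7% of all genes), with a median log2 difference of 0.82 against 0.11. The groups did not overlap for 58 members higher in DKOITD (71.6%, against 17.3% of all genes) and for 1 lower, Rps4y2 (against 14% of all genes). Among the 52 members with a mean of at least 20 RPKM, all 52 lay above 0 and 49 did not overlap. The share over all genes of that level was not computed, so neither count can be read against a background. These counts are a description, since members share libraries. Voom on recovered reads also called 0 members. No member passed in any fit that left out 1 WT or DKOITD library, where at most 1.45% of all genes did. With columns rescaled to the same sum 57 members passed, where 13.9% of all genes did. Per recovered read 25 passed (2.44% of all genes), and with limma's library weights 14 (4.84% of all genes).

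Among the members with the smallest p, none of them past the threshold, were Rpl14, Rpl36, Rps2 and Rpl13a. Rpl14 measured 109, 76.4 and 60.7 RPKM in the WT libraries, 45.8 and 44.1 in the ITD libraries and 127, 131, 141 and 105 in the DKOITD libraries, a difference between DKOITD and ITD of 1.46 ± 0.32 (SE; adjusted p = 0.0613). Its ITD libraries were the lowest of the 9. Rpl36 measured 59.1, 62.3 and 50.04 RPKM in the WT libraries, 33.5 and 29.3 in the ITD libraries and 101, 72.6, 98.8 and 63.6 in the DKOITD libraries, with 1.37 ± 0.32 (SE; adjusted p = 0.0689). Rps2, which lies near the mRNA entry channel, measured 62.1, 52.2 and 94.7 RPKM in the WT libraries, 50.3 and 19.8 in the ITD libraries and 116, 107, 100.1 and 78.9 in the DKOITD libraries. The difference was 1.62 ± 0.40 (SE; adjusted p = 0.0792), and ITD 2 was well below ITD 1. Rpl13a, also known as a part of a complex that silences inflammatory mRNAs, measured 209, 182 and 146 RPKM in the WT libraries, 113 and 112 in the ITD libraries and 233, 214, 286 and 239.8 in the DKOITD libraries, with 1.09 ± 0.28 (SE; adjusted p = 0.0844).

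ITD against WT asks what the Flt3 ITD/+ allele changes without Cre. No member passed (0 of 81, where 0.0092% of all genes did, which is 1 gene), and 24 had an unadjusted p under 0.05, all lower in ITD. That was 29.6% of the members, against 2.94% of all genes lower and 4.99% higher. Of the 81 members, 60 lay below 0 and 21 above (25.9%, against 49.7% of all genes above), the median was -0.37 against 0.00 over all genes, and the groups did not overlap for 33 members lower and 1 higher in ITD (40.7% and 1.23%, against 8.99% and 10.1% of all genes). Without WT 2, and with voom on recovered reads, 0 members passed as well, where 0.0093% and 0% of genes did. Per recovered read the median was -0.17 against 0.14 over all genes. This comparison shares the WT libraries with the first and the ITD libraries with the second, so the 3 sets of values are not independent.

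The members with the 5 smallest p-values are given next, and none of them passed. Rps20 measured 262, 349 and 219 RPKM in the WT libraries, 116 and 98.02 in the ITD libraries and 175, 252, 234 and 194 in the DKOITD libraries, with -1.34 ± 0.31 (SE; adjusted p = 0.260) between ITD and WT. Its 3 WT libraries lay above both ITD libraries. Rpl13 measured 34.3, 68.4 and 28.0 RPKM in the WT libraries, 9.31 and 16.6 in the ITD libraries and 29.2, 39.4, 37.8 and 49.1 in the DKOITD libraries, a difference of -1.62 ± 0.45 (SE; adjusted p = 0.394). Rpl39, a small protein that lines the exit tunnel, measured 196, 466 and 138 RPKM in the WT libraries, 80.6 and 64.3 in the ITD libraries and 94.9, 212, 140.5 and 131 in the DKOITD libraries, with -1.68 ± 0.48 (SE; adjusted p = 0.394). Rps10 measured 74.8, 182 and 43.4 RPKM in the WT libraries, 27.5 and 24.7 in the ITD libraries and 44.7, 43.4, 39.5 and 39.4 in the DKOITD libraries, with -1.65 ± 0.49 (SE; adjusted p = 0.407), and Rps3a1 measured 156, 194 and 110.2 RPKM in the WT libraries, 65.3 and 73.2 in the ITD libraries and 129, 187, 145 and 135 in the DKOITD libraries, with -1.10 ± 0.33 (SE; adjusted p = 0.407). For each of these 5 members WT 2 was the highest of the 9 libraries, and without it the same differences were not called either.

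Whether members moved against the rest of the family was asked by taking each library's median over the members from every gene. Relative to that median, 6 members rose in DKOITD against WT and 0 fell, where 9.11% of all genes passed, 6.51% upward. They included Rpl10a at 2.43 ± 0.66 (SE; adjusted p = 0.0433), Rpl3 at 1.86 ± 0.47 (SE; adjusted p = 0.0339), Rpl35 at 1.22 ± 0.29 (SE; adjusted p = 0.0264) and Rps18 at 0.99 ± 0.28 (SE; adjusted p = 0.0490). Without WT 2, 0 members passed relative to the median, where 4.45% of genes did. Rps18, which bridges the head of the small subunit to the large one, measured 219.9, 231 and 116 RPKM in the WT libraries, 135 and 150.2 in the ITD libraries and 324, 347, 345 and 227 in the DKOITD libraries. The members' median in log2(RPKM + 1) was 5.80, 5.98 and 5.15 in WT and 5.36 to 5.47 in DKOITD, whereas their mean was 5.07 to 5.26 in WT and 5.41 to 5.70 in DKOITD. The median thus put the family lower in DKOITD than in WT 1 and WT 2, and the mean put it higher. After the median was taken out, the members' own median difference was 0.68, with 65 of 81 members above 0. As deposited these were 0.45 and 55 of 81. The 6 calls therefore do not show members moving against the rest of the family. Centred on the mean, a choice made after the data were seen, 1 member passed, Rps10, which fell by 1.38 ± 0.40 on the log2 scale (SE; adjusted p = 0.0398), where 13.9% of all genes passed, 10.1% downward. Rps10 was at 182 RPKM in WT 2 and at 43.4 RPKM in WT 3, and without WT 2 its difference was -0.86 ± 0.31 (SE; adjusted p = 0.108). With this centre and 1 WT or DKOITD library left out, Rps10 passed only without WT 3, at -1.79 ± 0.38 (SE; adjusted p = 0.0125). In DKOITD against ITD, 0 members passed with either centre (3.44% of genes with the median, 7.77% with the mean), and in ITD against WT 0 did (0.166% and 0.046%).

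Members known from human disease or p53 control were read by a list. Rps19, the gene most often mutated in Diamond-Blackfan anaemia, measured 349, 344 and 268 RPKM in the WT libraries, 257 and 213 in the ITD libraries and 621, 497, 657 and 386 in the DKOITD libraries, with 0.73 ± 0.26 (SE; adjusted p = 0.0853) between DKOITD and WT. Rps14, the gene of the 5q- syndrome, measured 771, 851 and 448 RPKM in the WT libraries, 507 and 511 in the ITD libraries and 888, 924, 979 and 856 in the DKOITD libraries, with 0.45 ± 0.26 (SE; adjusted p = 0.263). Rps26, another gene of Diamond-Blackfan anaemia, measured 229, 371 and 195 RPKM in the WT libraries, 167 and 137 in the ITD libraries and 261, 288, 332 and 260.0 in the DKOITD libraries, with 0.16 ± 0.27 (SE; adjusted p = 0.732). None of these passed. The lowest library was ITD 2 for Rps19 and Rps26 and WT 3 for Rps14.

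Rpl5 and Rpl11 carry the 5S RNA into the ribosome and, when free, bind Mdm2 and so raise p53. Rpl5 measured 1.93, 0.875 and 2.39 RPKM in the WT libraries, 2.22 and 1.86 in the ITD libraries and 4.80, 2.03, 2.47 and 2.38 in the DKOITD libraries, and Rpl11 measured 3.06, 6.70 and 3.197 RPKM in the WT libraries, 1.43 and 2.15 in the ITD libraries and 6.00, 4.60, 7.16 and 3.15 in the DKOITD libraries. At these low levels DKOITD and WT overlapped for both genes, while both ITD libraries of Rpl11 lay below every WT and DKOITD library. Rps6, the substrate of S6 kinase, measured 7.17, 0.127 and 4.27 RPKM in the WT libraries, 7.64 and 3.73 in the ITD libraries and 8.15, 6.48, 15.9 and 8.38 in the DKOITD libraries. Rpl10, which joins the large subunit last and is mutated in some T cell leukaemias, measured 24.6, 0.889 and 10.4 RPKM in the WT libraries, 17.4 and 17.8 in the ITD libraries and 36.7, 31.3, 34.4 and 20.8 in the DKOITD libraries. WT 2 was the lowest of the 9 libraries for both Rps6 and Rpl10, and neither passed between DKOITD and WT, with Rps6 at 1.48 ± 0.65 (SE; adjusted p = 0.147) and Rpl10 at 1.92 ± 0.68 (SE; adjusted p = 0.0833). Rpsa, also known as the laminin receptor, measured 57.0, 86.4 and 34.5 RPKM in the WT libraries, 24.3 and 22.4 in the ITD libraries and 42.1, 46.6, 47.9 and 34.8 in the DKOITD libraries, with -0.37 ± 0.34 (SE; adjusted p = 0.475).

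Some members have a paralog that can take their place in the ribosome. A ratio of RPKM within a library does not depend on how its column was scaled, but the tested ratio, with 1 RPKM added to each gene, does where a gene is low, as Rps27 and Rpl3l were. Rpl22 (chr4:152325742-152334071), whose loss arrests T cell development, measured 49.5, 88.0 and 31.2 RPKM in the WT libraries, 18.8 and 21.2 in the ITD libraries and 35.7, 34.7, 34.5 and 29.2 in the DKOITD libraries. Its paralog Rpl22l1 (chr3:28805436-28807424) measured 79.1, 90.8 and 75.6 RPKM in the WT libraries, 64.8 and 59.7 in the ITD libraries and 104, 147, 138 and 111 in the DKOITD libraries. The ratio of Rpl22l1 to Rpl22 was 1.596, 1.03 and 2.42 in WT, 3.45 and 2.82 in ITD, and 2.92, 4.23, 3.99 and 3.79 in DKOITD. Each library with the Flt3 ITD/+ allele had a higher ratio than each WT library. On the log2 scale with 1 RPKM added, the ratio averaged 1.86 ± 0.23 in DKOITD (SD, n = 4) and 0.65 ± 0.60 in WT (SD, n = 3), a difference of 1.20 (two-sided exact permutation over 35 splits, p = 0.0286, which is the smallest they allow, and 0.114 adjusted over the 4 pairs tested).

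With 4 pairs, no single pair can pass 0.05 after adjustment in this design, and none did. Rps27 measured 2.32, 0 and 1.95 RPKM in the WT libraries, 2.59 and 0 in the ITD libraries and 3.32, 2.85, 5.63 and 0.928 in the DKOITD libraries, and Rps27l, which p53 is known to induce, measured 453, 318 and 265 RPKM in the WT libraries, 355 and 307 in the ITD libraries and 523, 439.8, 444 and 510.1 in the DKOITD libraries. Their log2 ratio differed by -0.33 between DKOITD and WT (exact permutation test, p = 0.6). Since Rps27 had only 1.35% of its stretches unshared, its level is uncertain, and the part of read assignment in the ratio was not tested. Rpl7l1 against Rpl7 differed by 0.44 (exact permutation test, p = 0.229), and Rpl3l, a copy made mainly in muscle, against Rpl3 by -2.98 (exact permutation test, p = 0.0857, and 0.171 adjusted). Rpl3l was at 16.6 RPKM in WT 2 and at 0 in DKOITD 1.

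Rpl29 (chr9:106429454-106431568) was singled out after its values were seen. It measured 101, 151 and 0.243 RPKM in the WT libraries, 50.7 and 0 in the ITD libraries and 57.2, 36.6, 31.1 and 51.5 in the DKOITD libraries, from 1342, 1210 and 2 reads in WT, 169 and 0 reads in ITD and 490, 95, 239 and 548 reads in DKOITD. Rpl29 was the 1 gene of 23420 that was under 1 RPKM in both WT 3 and ITD 2 and over 10 RPKM in the 7 other libraries. WT 3 and ITD 2 belong to different groups, so this pattern does not follow the genotypes.

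**Figure D5:**
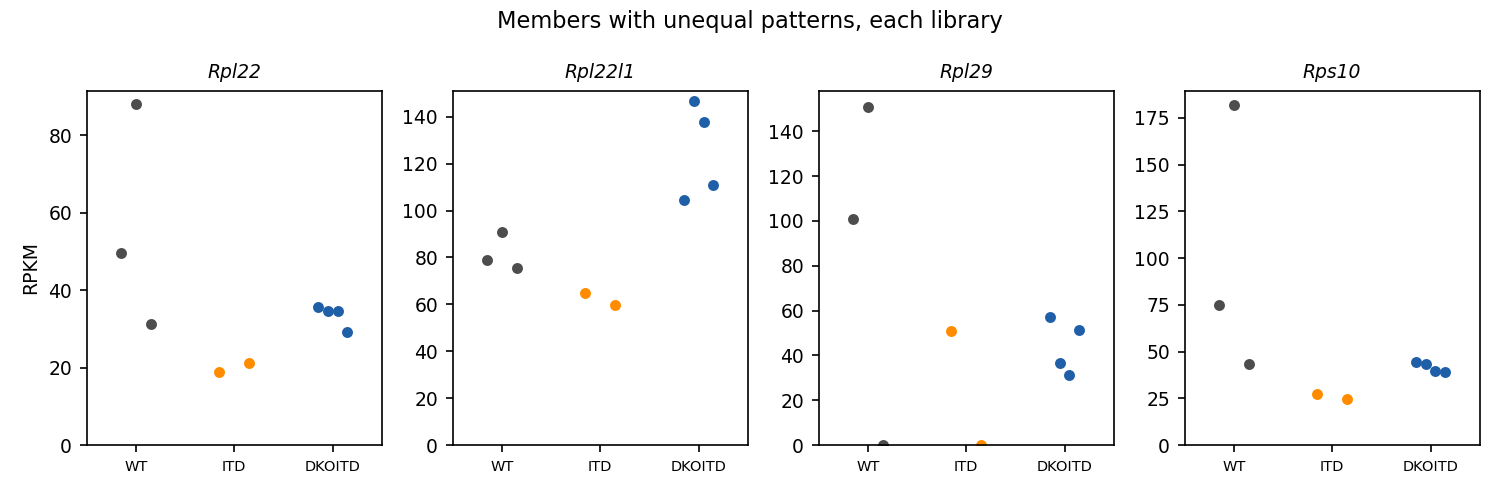
RPKM in each library (one point each, axes from 0) of Rpl22, its paralog Rpl22l1, Rpl29 and Rps10. Rpl22 and Rps10 are highest in WT 2 (88.0 and 182 RPKM), Rpl22l1 is highest in the DKOITD libraries, and Rpl29 is at 0.243 RPKM in WT 3 and 0 in ITD 2.

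Other genes of protein synthesis were read from lists. For comparison, 12.7% of all genes passed in DKOITD against WT (7.43% upward). Of 20 tested genes of elongation and of non-ribosomal TOP mRNAs, 3 rose and 0 fell, with a median of 0.80. They were Cct4, a subunit of the chaperonin that folds actin and tubulin, at 2.43 ± 0.64 (SE; adjusted p = 0.0291), the nucleolar chaperone Npm1 at 1.33 ± 0.32 (SE; adjusted p = 0.0230) and the elongation factor Eef1a1 at 0.82 ± 0.23 (SE; adjusted p = 0.0388). Of 36 initiation factors, 3 rose and 0 fell, with a median of 0.64: Eif1a at 1.83 ± 0.41 (SE; adjusted p = 0.0159), Eif2a at 1.599 ± 0.38 (SE; adjusted p = 0.0217) and the helicase Eif4a1 at 1.03 ± 0.28 (SE; adjusted p = 0.0332).

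Ribosome assembly genes and RNA polymerase I genes counted 61 tested, of which 5 rose and 0 fell, with a median of 0.76. The largest were Nop16 at 2.61 ± 0.41 (SE; adjusted p = 0.00360), the polymerase I factor Rrn3 at 2.53 ± 0.68 (SE; adjusted p = 0.0322) and Nob1, the nuclease that finishes 18S RNA, at 2.33 ± 0.70 (SE; adjusted p = 0.0488). Among 28 regulators of ribosome production, Myc rose by 3.02 ± 0.61 (SE; adjusted p = 0.0101), and 3 fell. Those were Mxd1, a Myc antagonist, at -2.81 ± 0.48 (SE; adjusted p = 0.00492), Mlst8, a subunit of mTOR complexes, at -2.65 ± 0.54 (SE; adjusted p = 0.0108), and Max, the partner of both Myc and Mxd1, at -1.73 ± 0.37 (SE; adjusted p = 0.0134). Of 76 mitochondrial ribosomal proteins, which form a separate ribosome, 12 rose (15.8%) and 0 fell, with a median of 0.82. The largest of these were Mrps18a at 3.57 ± 0.84 (SE; adjusted p = 0.0204), Mrpl50 at 3.04 ± 0.69 (SE; adjusted p = 0.0164) and Mrps10 at 2.87 ± 0.48 (SE; adjusted p = 0.00477). The list median was thus above that of the cytoplasmic members here, whereas in DKOITD against ITD it was 0.22 against their 0.82, a difference that was not tested.

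Without WT 2, 7.12% of all genes passed in DKOITD against WT. The elongation and TOP list then had 0 calls, the initiation list 2 (Eif1a and Eif2a), the assembly list 2 (Nip7 and Nop16) and the mitochondrial list 5, all higher, while Myc, Mxd1, Mlst8 and Max all passed as before. No gene of these lists passed in either of the other comparisons. In DKOITD against ITD the medians were 0.95 for elongation and TOP genes, 0.44 for initiation factors, 0.66 for assembly genes and -0.04 for regulators. In ITD against WT they were -0.14, 0.18, 0.23 and -0.16, and 0.40 for mitochondrial ribosomal proteins, against -0.37 for the cytoplasmic members. Ribosomal proteins under other symbols, Fau and Gnb2l1 among them, did not pass anywhere. Gnb2l1, the scaffold protein RACK1 of the small subunit, measured 370.2, 388 and 172 RPKM in the WT libraries, 138 and 135 in the ITD libraries and 322, 362, 299 and 266 in the DKOITD libraries, with both ITD libraries the lowest of the 9.

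Marker genes of cell types moved with the groups as well. Summed over 11 genes, neutrophil markers came to 879405 to 1193550 RPKM in WT, 682597 to 728769 RPKM in ITD and 35403 to 265920 RPKM in DKOITD. They included genes of secondary granules, but also S100a8 and S100a9, which made up most of each sum. S100a8 alone measured 518857 to 725585 RPKM in WT, 425929 and 467998 RPKM in ITD and 21751 to 170576 RPKM in DKOITD. The 10 genes of dendritic cells and MHC class II summed to 44.3 to 1202 RPKM in WT, 4201 to 11350 RPKM in ITD and 9383 to 37966 RPKM in DKOITD, with Ccr7 and Zbtb46 at 0 in all WT and ITD libraries. The 6 stem and progenitor markers summed to 34.8 to 110 RPKM in WT, 137 to 168 RPKM in ITD and 288 to 472 RPKM in DKOITD, with Sox4 at 0 in WT and ITD. The 6 monocyte markers summed to 2573 to 3131 RPKM in WT, 3542 to 3687 RPKM in ITD and 1757 to 2952 RPKM in DKOITD, and those of neutrophil primary granules overlapped between all groups. The 15 proliferation genes also overlapped, at 534 to 1197 RPKM in WT, 631 to 1013 RPKM in ITD and 463 to 765 RPKM in DKOITD. B cell markers summed to 5.16 to 15.5 RPKM in WT, 7.65 to 23.2 RPKM in ITD and 42.7 to 70.8 RPKM in DKOITD, with Pax5 at 0 in all. T cell markers summed to 9.16 to 13.7 RPKM in WT, 2.44 to 17.6 RPKM in ITD and 0.0695 to 4.36 RPKM in DKOITD. Cd3e and Cd247 were at 0 in all. Erythroid markers summed to 19.9 to 17210 RPKM in WT, 0 to 2835 RPKM in ITD and 1.28 to 8.79 RPKM in DKOITD. The part that the makeup of the sorted cells has in the ribosomal protein levels was not tested.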

How the data were processed

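The authors deposited RPKM per gene symbol for 9 libraries. The submitters' processing notes list STAR 2.4.2a, SAMtools 1.1, HTSeq 0.6.1p1 and mm10, without role or order, and no source used here gives the annotation or the scaling. For the 15566 genes above 0, whole reads were taken as the smallest whole numbers that fit the deposited RPKM (tolerance 0.0001 reads). A gene above 0 in only 1 library was set to 1 read there without such a check. Its reads, and reads that share a common factor, can therefore be too low. The column denominators matched trimmed-mean factors computed from those reads, with ratios between 0.9998 and 1.0005. No molecular identifiers are described, so PCR copies count as reads.

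Genes of at least 1 RPKM in at least 2 libraries (10868) were fitted as log2(RPKM + 1) with limma 3.58.1 (R 4.3.3; lmFit, eBayes with trend), all 9 libraries in one fit with the group as the only factor, two-sided, with Benjamini-Hochberg adjustment over all genes and a threshold of 0.05. The pseudocount understates differences of low genes. The fit was tested on simulated data. Paralog ratios were compared with exact permutation tests. Named members are those past the threshold in either fit, else the 5 with the smallest p, the 5 highest and 5 lowest, the paralog pairs, and disease and stalk genes. Some members and markers that the rule names are not reported here. Members, lists and rules were chosen with earlier results of these data known. Sequences are from RefSeq and gene positions from GENCODE vM21. Alternatives were 8 other settings and leaving out each library, and 3 added after seeing the data. Groups came from the genotype in the labels.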

Additional observations from a re-analysis of the deposited data

Results flagged for a closer look

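Within the 4 DKOITD libraries, 1 library stood far from the other 3 for 2 of the 44 series of values checked, and chance alone flags about 1 in 20. Rpl22 was at 29.24 RPKM in DKOITD 4 and between 34.5 and 35.7 RPKM in the other DKOITD libraries. Rps18 was at 226.8 RPKM in DKOITD 4 and between 324 and 347 RPKM in the others. DKOITD 4 is the only DKOITD library whose label number falls in the same series as the WT and ITD libraries.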

How the results depend on the processing

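For DKOITD against WT, where 9 members passed, the count was 63 with columns rescaled to the same sum and 40 per recovered read. It was between 0 and 14 with 1 library left out. Of all genes, 46% passed with the same sum, 25.3% per recovered read, 5.1% without DKOITD 3 and 18.3% without WT 3. The replicate block gave 2 members (8.13% of all genes), and 0 relative to the family (5.86% of all genes). Same-numbered libraries did not deviate together (correlations of deviations between -0.0444 and 0.0707), so the numbers are not taken to pair the samples. For DKOITD against ITD the count was 57 with the same sum, 25 per recovered read and 14 with library weights. Of all genes, 13.9%, 2.44% and 4.84% passed in these settings. Relative to the family, the 6 calls of DKOITD against WT became 1 with the mean as centre and 26 with library weights. They became 0 to 26 with 1 library left out. Of all genes, 13.9% passed there with the mean as centre, 29.8% with library weights and 24.8% without WT 3, where 26 members did. The fit relative to the family gave 1 call without the filter for DKOITD against ITD, where 29.9% of all genes passed. For ITD against WT it gave 10 with library weights, 4 without the filter and 16 without WT 3. Of all genes, 22.4%, 33.8% and 25.9% passed in these settings. Without WT 1 or WT 2 it gave 0 members, where 0.112% and 0.0465% of all genes passed.

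The members' median for DKOITD against WT was 1.68 with the same sum, 1.05 per recovered read, 0.28 after quantile normalization and 0.16 with the label number series. For DKOITD against ITD these were 1.89, 1.38 and, with the label number series, 0.69. For ITD against WT the median was -0.058 with the same sum, -0.17 per recovered read and between -0.54 and -0.37 with 1 library left out. The count of members above 0 in DKOITD against WT went from 55 of 81 as deposited to 77 per recovered read and 80 with the same sum. The median over all genes was 0.17, 0.74 and 1.21 in these settings. Members with a negative difference in DKOITD against WT can thus turn positive under those scalings. Relative to the family, the 6 calls with the median as centre were higher in DKOITD and the 1 call with the mean was lower. The cause was not tested. Groups of 2 to 4 libraries, each of 100 cells, limit all of these comparisons.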

Other observations

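Ribosomal protein levels were uneven in WT 2 rather than shifted one way. WT 2 was the highest of the 9 libraries for 28 of 81 members and the lowest for 21. Against the mean of WT 1 and WT 3 it was over 1 log2 unit higher for 14 members and over 1 lower for 12. The extremes were Rpl29 at 3.75 and Rpl17 at 3.37 above, and Rpl10 at -3.18 and Rpl15 at -2.64. The value of Rpl29 reflects WT 3, at 0.243 RPKM, more than WT 2, at 151 RPKM beside 101 RPKM in WT 1. The median SD of a member on the log2 scale was 0.50 in WT, 0.34 in WT without WT 2 and 0.29 in DKOITD, and 64 of 81 members had a higher SD in WT. Over all genes tested the median SD was 0.68 in WT and 0.47 in DKOITD.

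The genes outside the family whose levels over the 9 libraries ran most like the members' median were Mark3 (Pearson's r = 0.978), Gm4759 (0.973), Suv420h1 (0.972), Zfp622 (0.933) and Gnb2l1 (0.931), as a description over libraries that share the groups. With the members' mean in place of the median the 5 genes were others: Bcap29 (0.976), Abhd12 (0.955), Zfp330 (0.941), Smpd4 (0.936) and D10Wsu52e (0.935). Mark3, Gm4759, Suv420h1, Zfp622 and Gnb2l1 were all highest in WT 2, as the members' median was. Of the 6 symbols marked -ps, Rps15a-ps6 measured 33.2, 34.6 and 19.4 RPKM in WT 1 to 3, 17.8 and 13.9 in ITD 1 and 2, and 24.5, 13.9, 27.5 and 28.0 in DKOITD 1 to 4, and Rplp2-ps1 was at 0 throughout.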
